A study of Mus musculus with 8 samples.

Results

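The genes described here are the nuclear genes of the mitochondrial respiratory complexes, followed through the first 2 h after RAW264.7 cells, mouse macrophages grown as a line, met lipopolysaccharide (LPS), a component of the bacterial cell wall. They were chosen by their symbols, as the rows of the count table whose names begin with Nduf, Uqcr, Cox4 to Cox8 or Atp5. This gave 88 of the 23143 genes in the table: 38 named as subunits of complex I, 7 assembly factors of complex I (Ndufaf1 to Ndufaf7), 8 genes of complex III, 18 of complex IV and 17 named for ATP synthase. Of these, 82 had a mean normalized count of at least 10 over the libraries and entered the comparisons, 3 had fewer counts and 3 had no count at all. Genes of the mitochondrial genome and complex II do not match these names, and the mitochondrially encoded subunits were not analysed here.

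The 8 libraries were 1 culture without LPS (0 min) and 7 cultures with 100 ng/ml LPS, taken every 15 min up to 90 min and then at 120 min. Values listed for all libraries are in the order of time. The labels give no genotype other than that of the line, and they name the material both total RNA and cytoplasmic RNA. With 1 library per time point the differences between times have no replicate check, and every interval below covers counting error only. A time point, a culture and a library therefore cannot be told apart.

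The respiratory chain passes electrons from NADH at complex I, or from succinate at complex II, through complex III and cytochrome c to oxygen at complex IV, while complexes I, III and IV pump protons across the inner mitochondrial membrane. ATP synthase uses the return of these protons to make ATP. The catalytic cores of these complexes are joined by many small accessory subunits, nearly all encoded in the nucleus by short mRNAs. In macrophages, LPS is known to shift energy metabolism from respiration towards glycolysis over hours.

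The libraries held 100250892 to 159077286 counts. The ribosomal RNA precursor Rn45s took 8.18% to 9.11% of the counts at 0, 30, 60 and 120 min, and 13.0% to 20.5% at 15, 45, 75 and 90 min, so these 4 libraries stood apart from the others. All 7 macrophage markers with a row in the table, among them Csf1r, Cd68 and Lyz2, had a mean of at least 100 normalized counts and summed to 5662 to 6819 CPM (counts scaled to the library total in the usual way) in each library. The 16 markers of fibroblasts, lymphocytes, epithelium, endothelium, muscle and neutrophils with a row summed to 0.766 to 1.04 CPM, and Col1a1, Col1a2, Col3a1, Epcam and S100a9 had no count. Malat1, an RNA that stays in the nucleus, was abundant, with 289864 counts at 0 min, although the labels name the fraction cytoplasmic.

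Before LPS, the genes of the respiratory complexes were among the abundant mRNAs of these cells. Levels are given as CPM per kb of the longest annotated transcript, so that genes of different length can be compared. The median level of the 82 genes was 122 at 0 min, against 9.09 for all 11423 coding genes with a mean of at least 10 normalized counts, the members included. The complexes did not share 1 level. The median was 322 for the 13 genes of complex IV, 276 for the 17 genes named for ATP synthase, 193 for the 8 genes of complex III and 98.6 for the 37 genes of complex I. The assembly factors of complex I, which act on the complex while it is built and are no part of the finished enzyme, had a median of 15.9. The highest of them, Ndufaf2, reached 25.9, followed by Ndufaf5 at 21.9 and Ndufaf6 at 18.1, so all 7 lay below the lower quartile of the complex I subunits, which was 72.8.

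The highest level of any member was that of Atp5b, the catalytic beta subunit of the F1 part of ATP synthase, with 978 at 0 min (95% exact Poisson interval 975 to 982). Cox4i1, the widely expressed form of subunit IV of complex IV, had 789.7. Atp5a1, the alpha subunit that alternates with Atp5b in the F1 ring, had 618, and Atp5l, a small subunit of the membrane part, 561. In complex III, Uqcrh, the hinge protein next to cytochrome c1, led with 476, ahead of the small subunits Uqcr10 with 269 and Uqcr11 with 266. Cox8a and Cox5a followed Cox4i1 in complex IV with 451 and 385. Among the genes named for complex I, Ndufb8, an accessory subunit of the membrane arm, had 317 and Ndufa2 209. Ndufa4, second in that group with 274, was named for complex I but is now assigned to complex IV, where its level lay within the range of the other subunits.

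**Figure D1:**
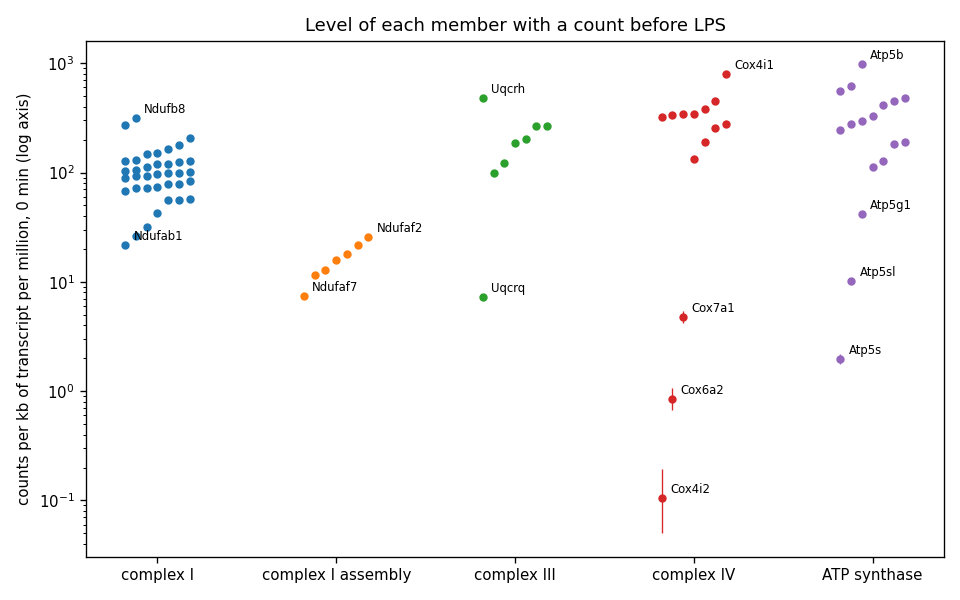
Level of every member with a count at 0 min, in CPM per kb of transcript on a log axis, 1 point per gene and 1 column per complex, with 95% exact Poisson intervals of the count. The complex I assembly factors lie between 7.40 and 25.9, and Cox7a1, Cox6a2, Cox4i2, Uqcrq and Atp5s lie far below the other genes of their groups.

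Several subunits are encoded by more than 1 gene, and RAW264.7 cells used 1 gene of most such families. Cox6a1 had a level of 341 at 0 min and Cox6a2, the form of heart and skeletal muscle, 0.853. Cox7a2 had 279 and Cox7a1, also a muscle form, 4.82. Cox4i1 stood at 789.7 against 0.105 for Cox4i2, the form known from lung, which had 2 to 13 counts in a library. Cox6b2, Cox7b2 and Cox8c had no count in any of the 8 libraries, and Cox8b had a single count, at 120 min. Such an absence leaves room for 3 counts in a library, or 0.0189 to 0.0299 CPM. Their partners Cox6b1, Cox7b and Cox8a stood at 345, 189.5 and 451. Ndufa4l2, a relative of Ndufa4 known as a hypoxia response gene, had 0 counts at 0 min and 1 to 8 counts in the LPS libraries.

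Subunit c, which forms the turning ring of ATP synthase, was an exception, since 2 of its 3 genes were abundant. These genes encode the same mature protein behind different import signals. Atp5g2 and Atp5g3 had levels of 418 and 450.4 at 0 min. Atp5g1 had 42.1, or 74.2 when the median length of its coding transcripts replaced the longest one of 4715 bases. The choice of transcript mattered in the same way for other genes with a long isoform: Uqcrc1, a core subunit of complex III, had 201 by its longest and 622 by its median coding transcript, and Ndufs1, the largest core subunit of complex I, 72.8 and 298. Reads that matched more than 1 gene had been discarded by the authors. In the annotation used here, 34.0% of the 58-base windows of Cox7c also lay in Gm10012, and the shares were 26.6% for Ndufa13 (with Tssk6), 24.5% for Uqcrc2 (with Pdzd9) and 14.6% for Atp5f1 (with Wdr77), so these levels are uncertain.

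After LPS, the members stayed close to their starting values while many other genes moved away from theirs. Ratios to 0 min are log2 ratios of normalized counts, which were divided by size factors of the libraries, with a pseudocount of 0.5. Between 15 and 120 min, 78 of the 82 members (95.1%) stayed within 0.5 in either direction at every time, against 56.6% of the 12166 genes with a mean of at least 10. Within 0.25, the counts were 50 members (61.0%) and 26.3% of all genes. At 120 min, the quartiles of the members were -0.17 and -0.015, and those of all genes -0.30 and 0.32. Low counts spread more by counting error alone, and 81 of the 82 members but 10494 of the 12166 genes had a mean of at least 100. Scaling the libraries to their total counts lowers every ratio, by 0.067, 0.028, 0.19, 0.095, 0.33, 0.26 and 0.20 from 15 to 120 min, so that positive ratios smaller than these change sign on that scale.

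Abundant members give an idea of the size of the changes. The normalized count of Atp5b was 210164, 194735, 196459, 190743, 208899, 205220, 211089 and 219341 from 0 to 120 min. It dipped at 45 min and was highest at 120 min, 1.04 times the value at 0 min. The normalized count of Cox4i1 was 65956, 58019.6, 59953, 55674, 62284, 59606, 62147 and 62212 from 0 to 120 min. Here too the 45 min library was the lowest, and none of the LPS libraries reached the value at 0 min. For Uqcrc1, the normalized count was 37168, 35917, 35872, 34089, 36468, 37518, 37001 and 37963 from 0 to 120 min, with the lowest value again at 45 min. For Ndufs1, it was 21728, 20731, 20824, 20825, 21601, 21875, 21564 and 21301 from 0 to 120 min, a range in which no time stood out.

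A small shift towards lower values was nevertheless shared by nearly all members. Their median log2 ratio was -0.13, -0.099, -0.21, -0.084, -0.12, -0.060 and -0.096 from 15 to 120 min. The share of members below 0 was 90.2%, 87.8%, 95.1%, 81.7%, 85.4%, 76.8% and 78.0% from 15 to 120 min, whereas 44.7% to 51.0% of all genes lay below 0. The lowest median, at 45 min, amounted to 0.866 of the value at 0 min. With size factors, the shift did not grow with time, and it was already -0.13 after 15 min. Its course depended on the scale. With libraries scaled to total counts without Rn45s, the median went from -0.12 after 15 min to -0.29 in the 120 min library, its lowest value. That course was not steady, since the median was -0.26 at 45 min and -0.18 at 60 min. With Rn45s kept in the totals, the 15 min library had -0.20, the 75 min library -0.45 and the last library -0.30.

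The size of the dip at 45 min differed between members. Apart from Cox7a1, which has few counts, it was deepest for Ndufs5, an accessory subunit of complex I, at -0.39, followed by Atp5j2 at -0.37 and Atp5e, the small epsilon subunit of the F1 part, at -0.37. The normalized count of Ndufs5 was 1542, 1255, 1431, 1172, 1432, 1308, 1414 and 1313 from 0 to 120 min. It was lowest at 45 and 15 min and returned towards the start at 30 and 60 min. Other members hardly moved. Ndufa10, an accessory subunit of the membrane arm of complex I, had log2 ratios of 0.0037, -0.013, -0.052, -0.0065, 0.040, 0.035 and 0.028 from 15 to 120 min, and Uqcrfs1 had -0.099, -0.029, -0.030, 0.052, 0.030, 0.070 and 0.063 from 15 to 120 min. These genes were picked for their values.

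Transcripts of the same length that do not belong to the respiratory complexes had similar medians. The members are short, with a median length of 786 bases (315 to 4715) against 2884 bases for all genes with a mean of at least 10. At 45 min, the median log2 ratio of other coding genes was -0.23 for 130 genes of up to 600 bases, -0.20 for 501 genes of over 600 to 1000 bases, -0.13 for 2437 genes of over 1000 to 2000 bases, -0.012 for 4718 genes of over 2000 to 4000 bases and 0.18 for 3555 longer genes. The members, at -0.21, lay between the first and the second of these bands. At 120 min, the band of 600 to 1000 bases had -0.093 and the members -0.096. Among the 82 members themselves, the log2 ratio went with log2 length at 15 min (Pearson r = 0.34) and 45 min (r = 0.27). It did so less at 30 and 75 min (r = 0.21 at both). At 60, 90 and 120 min it did not, with r between -0.033 and 0.028. These correlations run across genes of the same libraries, which are not independent.

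When the course of the ratios with transcript length in each library, taken over 11341 coding genes that are not members, was subtracted, the shared shift was no longer seen. The median of the members was then -0.015, -0.0017, -0.030, 0.0026, 0.0047, 0.015 and -0.014 from 15 to 120 min, and 42.7% to 61.0% of members lay below 0. What made short transcripts lower in the 7 LPS libraries was not tested, and with 1 library per time a difference between libraries and a response to LPS cannot be told apart. In these bulk libraries, a change in every cell and a larger change in some cells cannot be told apart either.

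**Figure D2:**
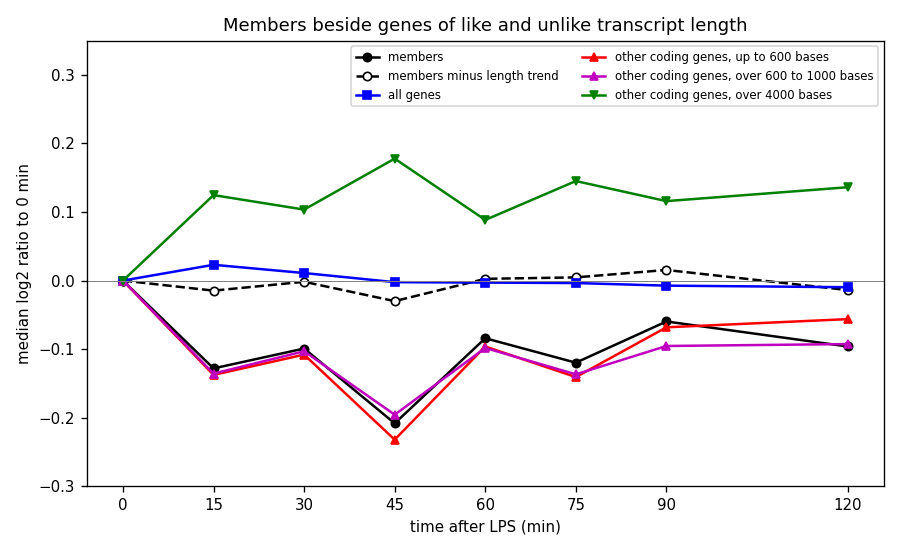
Median log2 ratio to 0 min against time after LPS in min for the 82 members before (filled black circles) and after subtraction of the length trend (open circles), for all 12166 genes and for other coding genes in 3 bands of transcript length. The members follow the short genes, with their lowest value of -0.21 at 45 min, and lie within 0.030 of 0 at every time once the trend is subtracted.

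By complex, the differences were small as well. At 120 min the median log2 ratio was -0.12 for complex I, -0.11 for ATP synthase, -0.066 for the complex I assembly factors, -0.066 for complex IV and -0.0065 for complex III. After subtraction of the length trend the order was complex III at 0.072, complex IV at 0.032, the assembly factors at 0.020, complex I at -0.036 and ATP synthase at -0.049. Complex I had the largest share of genes below 0 at 120 min, 91.9% of 37 before and 73.0% after that subtraction. For ATP synthase these shares were 76.5% and 64.7%, for complex III 50% and 37.5%, and for complex IV 61.5% and 23.1%. No test of these differences between complexes was possible, because each rests on the same pair of libraries.

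**Figure D3:**
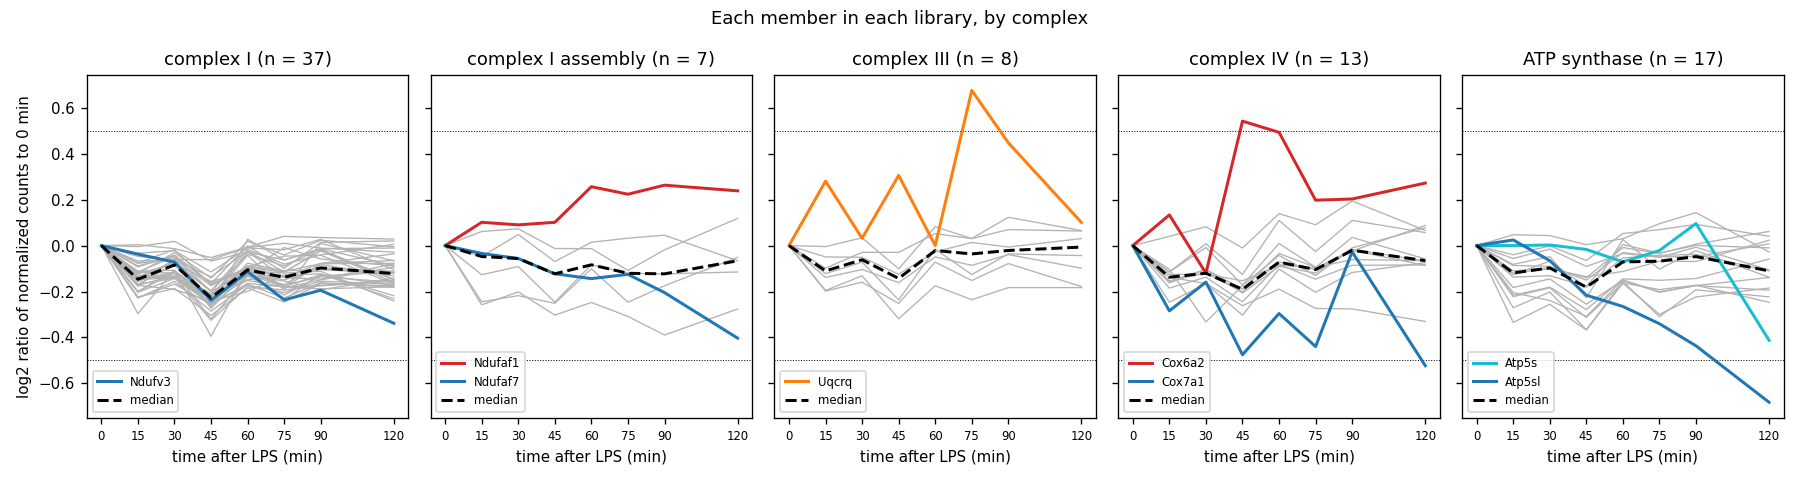
Log2 ratio of normalized counts to 0 min against time after LPS in min for each of the 82 members, 1 panel per complex, with the median dashed, the members with the most extreme ratios in colour and dotted lines at the limit of 0.5. Most lines dip at 45 min, and Uqcrq at 75 min, Cox6a2 at 45 min, and Cox7a1 and Atp5sl at 120 min lie beyond the limit.

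With size factors, few members left the range of 0.5, and their share was below that of all genes at every time. With libraries scaled to total counts, 27 members were past the limit at 75 min, and the text gives no share of all genes on that scale. A second criterion was the p-value of an exact negative binomial test of the 2 libraries below 0.05, which compares those libraries and not the conditions. No member passed both criteria at any time. The dispersion of this test treats the libraries of all times as replicates, which by the paper rather overestimates the variance. Even log2 ratios of -0.68 (Atp5sl at 120 min) and 0.68 (Uqcrq at 75 min) gave p = 0.0537 and 0.0657 in the exact test. The lack of a member passing both criteria therefore does not show that no member changed. At 15 min no member was past the fold limit, while 2.66% of all genes were higher and 2.09% lower, and 0.551% passed both criteria. At 30 min there was again none, beside 4.17% higher, 2.48% lower and 1.65% by both. At 45 min 1 member, Cox6a2, was higher and none lower, beside 10.4% and 5.76% of all genes, and 6.48% of all genes passed both criteria. At 60 min no member was past the limit, beside 9.01% higher, 7.4% lower and 7.23% by both. At 75 min Uqcrq alone was higher and none lower, beside 12.6%, 11.1% and 10.2%. At 90 min none was past it, beside 14.1%, 12.3% and 12.6%. At 120 min none was higher and 2, Atp5sl and Cox7a1, were lower, beside 16.8% of all genes higher, 15.8% lower and 18% by both criteria.

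The member with the lowest ratio to 0 min was Atp5sl (chr7:25619414-25625550 of GRCm38). Despite its name, its product is not a subunit of ATP synthase: the gene is now called Dmac2 and is known as an assembly factor for the distal membrane arm of complex I. Its normalized count was 2697, 2743, 2578, 2322, 2245, 2131, 1993 and 1681 from 0 to 120 min. From 30 min on, each time point was lower than the one before, and the libraries with much and with little Rn45s lay on 1 course. At 120 min it stood at 0.623 times the value at 0 min (95% exact interval 0.589 to 0.659), a log2 ratio of -0.68, or -0.64 after subtraction of the length trend. The exact test of the 2 libraries gave p = 0.0537, just above the criterion. With the libraries scaled to their total counts in place of size factors, it passed both criteria at 120 min.

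Its relative Atp5s, named coupling factor B and now called Dmac2l, shared only the value at 120 min. The normalized count was 330.2, 330.2, 331, 326, 314, 325, 353 and 248 from 0 to 120 min, so that the libraries from 0 to 90 min lay between 314 and 353 and that at 120 min was 0.751 times the start (interval 0.644 to 0.875). Ndufaf7, a methyltransferase that acts in the assembly of complex I, went from 1450 at 0 min through 1312 at 60 min to 1097 at 120 min, which is 0.756 times the start (0.704 to 0.813). Ndufv3, an accessory subunit of the NADH-oxidizing module, reached 0.791 (0.763 to 0.820) at 120 min. Cox7a2l, which takes part in joining complexes III and IV into supercomplexes, was at -0.33 on the log2 scale, and at -0.23 after the length trend. Cox7a1 had 111 to 248 counts in a library, and its log2 ratios of -0.28, -0.16, -0.48, -0.30, -0.44, -0.027 and -0.52 from 15 to 120 min followed no steady course. Its interval at 120 min was -0.81 to -0.24 on the log2 scale, and the exact test gave p = 0.198.

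Apart from Uqcrq, described next, Ndufaf1 was the one member with a mean of at least 100 whose ratio was above 0 at all 7 times. It encodes an assembly factor that works on the membrane arm of complex I together with Ecsit, Acad9 and Tmem126b. The normalized count was 2578, 2766, 2745, 2766, 3079.9, 3011, 3094 and 3042 from 0 to 120 min, so the libraries from 60 min on lay above all earlier ones. At 120 min the log2 ratio was 0.24 (interval 0.17 to 0.31), and 0.34 after subtraction of the length trend, the highest of the members with a mean of at least 100 in both cases. With the libraries scaled to total counts its ratio was below 0 at 45 and 75 min. Ndufaf4, another assembly factor, was at 0.12. The complex I assembly factors thus held members near both ends of the list, Ndufaf1 at the top and Ndufaf7 at -0.40. Cox6a1 at 0.088, Cox8a at 0.077 and, after the length trend, Uqcrfs1, the Rieske iron-sulfur protein of complex III, at 0.18 were the next highest apart from Uqcrq. Cox6a2 had 53 to 103 counts in a library, with a log2 ratio of 0.54 at 45 min (interval 0.080 to 1.01) and 0.27 at 120 min (interval -0.17 to 0.73), and the exact test at 45 min gave p = 0.266.

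Uqcrq (chr11:53427922-53430831 of GRCm38), a small subunit of complex III, did not behave like the other genes of that complex. Its level at 0 min was 7.31, or 22.1 by the median length of its coding transcripts, against a median of 193 in complex III. The counts themselves were 1457, 1591, 1556, 1364, 1400, 1414, 1339 and 1649 from 0 to 120 min, between 1339 and 1649 in libraries of different size. The normalized count was 1246, 1514, 1274, 1541, 1247, 1991, 1700 and 1336 from 0 to 120 min. The highest values were those at 75, 90, 45 and 15 min, the 4 libraries with a large share of Rn45s, and the 4 other libraries lay together between 1246 and 1336. At 75 min the log2 ratio was 0.68 (interval 0.57 to 0.78, exact test of 2 libraries p = 0.0657), while the 7 other genes of complex III lay between -0.24 and 0.031 and the 81 other members between -0.44 and 0.22.

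Over the 8 libraries, the log2 normalized counts of Uqcrq and Rn45s had a Pearson r of 0.969. Only 2 of the 10494 genes with a mean of at least 100 had a higher r with Rn45s, and the next member, Atp5j, had 0.578. All these points share their libraries and size factors, so this is a description. No 58-base window of Uqcrq matched another gene exactly among the annotated transcripts matched by accession. The authors' mapping allowed 2 mismatches, which this search did not cover. Leap2, a neighbour of Uqcrq, had 0 to 2 counts, and Gdf9, whose annotated span overlaps that of Uqcrq at one end, had 6 to 15. Aff4, the neighbour beyond Leap2, had 10590 to 24798 counts. The part of Rn45s in the values of Uqcrq was not tested. Without Uqcrq, no member was past the limit at 75 min.

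**Figure D4:**
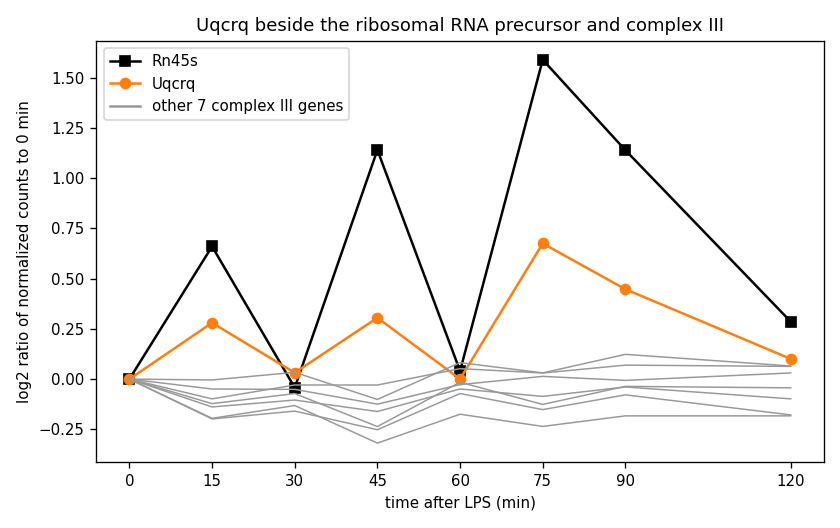
Log2 ratio of normalized counts to 0 min against time after LPS in min for Uqcrq, the ribosomal RNA precursor Rn45s and the 7 other genes of complex III. Uqcrq is high in the same libraries as Rn45s. At 75 min Uqcrq has 0.68 and Rn45s 1.59, while the other genes lie between -0.24 and 0.031. Over all times the other genes reach from -0.32 at 45 min to 0.12 at 90 min.

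The median of the members and the members past the limit were also computed within the libraries with a small and those with a large Rn45s share. In the 4 libraries at 0, 30, 60 and 120 min, size factors of their own were used. Atp5sl and Cox7a1 were again the members past the limit at 120 min, and none was past it earlier. With the size factors of all 8 libraries, 4.17%, 9.01% and 16.8% of all genes were higher at 30, 60 and 120 min. The shares of all genes that were lower were 2.48%, 7.4% and 15.8%. When the 15 min library served as the base for those at 45, 75 and 90 min, a check chosen after seeing the data in which Rn45s itself still had log2 ratios of 0.48, 0.93 and 0.48, the medians of the members were -0.063, 0.019 and 0.070, and no member was past the limit. On this base, 832, 1147 and 1357 of all 12166 genes were higher past the limit, and 607, 1338 and 1548 were lower. Atp5sl was lower on this base too, with -0.24, -0.36 and -0.46. Ndufaf1 had -0.00011 at 45 min, 0.12 at 75 min and 0.16 at 90 min.

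Among other large families of short housekeeping genes, the mitochondrial ribosomal proteins were closest to the members in their median at 120 min. The median log2 ratio of 76 mitochondrial ribosomal protein genes was -0.092, with -0.017 after the length trend, next to -0.096 and -0.014 for the members. The 81 cytoplasmic ribosomal protein genes had -0.013 and 0.080, and 39 genes of proteasome subunits 0.097 and 0.20. At 15 min, the families lay closer together, with medians of -0.15, -0.13 and -0.12 in this order and -0.13 for the members. Past the limit at 120 min were 2 of 82 members, 6 of 76 mitochondrial ribosomal protein genes and 1 of 81 cytoplasmic ribosomal protein genes. The count was 4 of 39 for the proteasome genes. Of all genes, 16.8% were higher and 15.8% lower past the same limit, so each of these families was below the share of all genes. These comparisons share the 0 min library and were not tested.

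Genes of the same pathway that the symbols do not cover gave a similar picture for the enzymes. The 8 listed genes were the 4 subunits of complex II (Sdha to Sdhd), cytochrome c (Cycs), cytochrome c1 (Cyc1), the ATP synthase inhibitor Atpif1 and AA467197, a relative of Ndufa4. Of these, 7 had a mean of at least 10 and none was past the limit at any time. At 120 min, Cycs had a log2 ratio of 0.12 and Cyc1 0.041, whereas Sdhb and Sdhd both had -0.22. AA467197 had 0 to 2 counts in a library.

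Among 27 assembly factors outside the Ndufaf names, 5 were past the limit at some time and 1 passed both criteria at some time, beside 43.4% and 22.9% of all genes. The 1 gene was Tmem126b, a partner of Ndufaf1, whose normalized count was 642, 564, 545, 404, 444, 453, 455 and 370.4 from 0 to 120 min. The values from 45 min on were all below the earlier ones, and the log2 ratio at 120 min was -0.79 (interval -0.96 to -0.62). Its partners Ecsit, Timmdc1 and Acad9 had -0.26, -0.13 and 0.18. At 120 min Sco2, a copper chaperone of complex IV, was at 0.68 (interval 0.58 to 0.78) and Ttc19, a factor of complex III, at 0.57 (interval 0.49 to 0.66), while Lyrm7, with 192 to 308 counts, was just past the limit at -0.505. Sdhaf1, a factor of complex II, was past the limit at 75 min alone, with -0.52.

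Some known regulators of these genes moved further than the genes themselves. Of 12 listed regulators, 11 had a mean of at least 10, 6 of these were past the limit at some time and 4 passed both criteria, beside 43.4% and 22.9% of all genes, so that with 11 genes these numbers are not a result about the regulators as a group. Ppargc1b, the coactivator PGC-1beta, which drives mitochondrial gene expression with the receptor ERRalpha, had normalized counts of 934, 1012, 973, 1195, 754, 453, 286 and 233 from 0 to 120 min. Its values up to 45 min lay above all later ones, and at 120 min it was at 0.249 times the start (interval 0.218 to 0.284), passing both criteria at 75, 90 and 120 min. Esrra, which encodes ERRalpha itself, had normalized counts of 5471, 4725, 5229, 4699.6, 4567, 3659.9, 3302 and 3165 from 0 to 120 min. Its ratio at 120 min was 0.578 (0.556 to 0.602), and it passed both criteria at 90 and 120 min. Tfb1m, a methyltransferase of mitochondrial ribosomal RNA, passed them at 120 min with a log2 ratio of -0.71. Ppargc1a, the better known PGC-1alpha, had 0 to 2 counts in a library.

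Other regulators were higher. Pprc1, a relative of PGC-1 that responds to growth signals, had normalized counts of 3759.9, 4097, 4387, 6484, 5505, 6499, 6265 and 6838 from 0 to 120 min. All values from 45 min on were above the earlier ones, with 1.82 times the start at 120 min (1.75 to 1.89), and both criteria were passed at 45, 75, 90 and 120 min. The subunits of the ETS factor GABP, also called NRF-2, were higher without passing both criteria: Gabpa had a log2 ratio of 0.63 at 120 min (interval 0.60 to 0.67) and Gabpb1 0.44 (0.37 to 0.52). Gabpa shares 8.91% of the 58-base windows of its neighbour Atp5j, so that reads of those windows would have been discarded for both. Nrf1 was at 0.23, Yy1 at 0.33 and Tfam, which packages mitochondrial DNA, at -0.21. Yy1 and Gabpa are long transcripts, and after subtraction of the length trend they stood at 0.19 and 0.55.

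**Figure D5:**
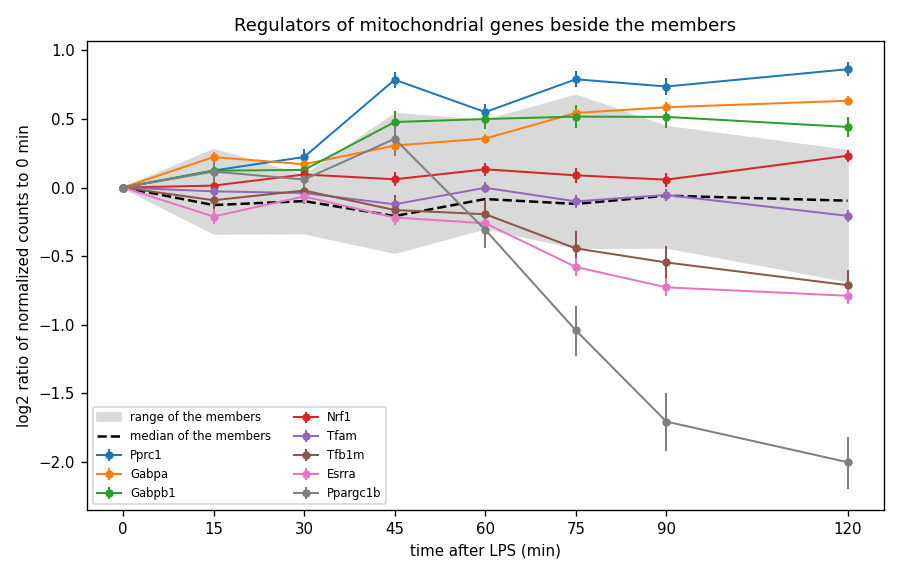
Log2 ratio of normalized counts to 0 min against time after LPS in min for 8 regulators of mitochondrial genes, with 95% exact intervals of the counts, beside the range (grey) and the median (dashed) of the 82 members. From 75 min on Ppargc1b and Esrra lie below the range of the members, ending at -2.00 and -0.79, and Pprc1 lies above it, ending at 0.86.

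The promoters of the members were searched for motifs of these regulators and of NF-kB, the factor best known from the LPS response. RefSeq promoters of GRCm38.p6, from 250 bases before to 50 bases after a start, were matched by symbol for 70 of the 82 members. Each motif was searched on both strands. The ETS motif CCGGAAG was in 21.4% of these 70 genes, against 20.9% of the 9673 matched genes with a mean of at least 10 and 9.93% of all 27025 genes. The NRF1 motif GCATGCGC was in 15.7%, 6.08% and 3.05% of the same sets. The YY1 motif AAGATGGCG was in 11.4%, 3.70% and 1.64%. The ERR motif CAAGGTCA was in 3 of the 70 genes (4.29%), against 1.37% and 1.76%. The NF-kB motif GGANTTTCC was in none of the 70, with 1.62% and 1.45% in the other sets. The letters of these motifs do not contain one another, and a match is a description of the window and not evidence of binding. The median GC content was 58% for the members and 60.3% for the genes with a mean of at least 10.

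An ETS or NRF1 match was present in 22 of the 70 members and both were present in 4, namely Atp5k, Atp5l, Cox6a1 and Uqcr11. The 22 members had a median log2 ratio of -0.11 at 120 min, and the 48 without either match -0.099. After the length trend the medians were -0.020 and -0.024. The 250 bases before the start are shown for Atp5l, with ETS, NRF1 and ERR matches, for Cox6a1, with ETS and NRF1 matches, and for Ndufaf1, which had the highest ratio at 120 min among the members with a mean of at least 100, with an ETS match. They are RefSeq sequence of the minus strand of GRCm38.p6, at chr9:44920743-44920992 for Atp5l, chr5:115348959-115349208 for Cox6a1 and chr2:119662835-119663084 for Ndufaf1, written 5′ to 3′ with the matches in capitals.
Atp5l: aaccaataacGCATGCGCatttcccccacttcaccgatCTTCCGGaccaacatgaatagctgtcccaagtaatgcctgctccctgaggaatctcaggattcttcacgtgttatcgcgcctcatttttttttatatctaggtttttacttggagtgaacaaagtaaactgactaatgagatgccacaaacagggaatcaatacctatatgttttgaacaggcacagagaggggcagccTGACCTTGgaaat
Cox6a1: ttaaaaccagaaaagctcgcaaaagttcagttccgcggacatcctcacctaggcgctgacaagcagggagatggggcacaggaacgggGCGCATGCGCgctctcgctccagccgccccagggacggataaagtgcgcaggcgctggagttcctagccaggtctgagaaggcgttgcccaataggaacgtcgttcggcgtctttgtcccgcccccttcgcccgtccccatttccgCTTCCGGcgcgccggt
Ndufaf1: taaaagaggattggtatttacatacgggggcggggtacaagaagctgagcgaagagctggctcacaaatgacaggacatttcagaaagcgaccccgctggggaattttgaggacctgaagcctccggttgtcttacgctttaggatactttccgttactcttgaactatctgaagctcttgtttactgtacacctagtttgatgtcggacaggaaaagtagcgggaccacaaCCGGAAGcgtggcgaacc
Both NRF1 matches of Cox6a1 lie in 1 stretch of capitals, since the motif overlaps its own complement. A further ETS match of Atp5l lies after the start and is not shown. The log2 ratios of the 3 genes at 120 min were -0.11, 0.088 and 0.24.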

How the data were processed

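RNA from 8 cultures of RAW264.7 cells had been sequenced by the authors as directional libraries after depletion of ribosomal RNA. Reads of 58 bases were mapped by the authors with Bowtie (version not given in the sources used here), allowing 2 mismatches, to the RefSeq transcripts of mm10, and reads of more than 1 gene symbol were discarded. The submitters' processing notes name CASAVA 1.8.2 and DESeq 1.10.1. The deposited values were raw counts per gene, 1 column per library, with no replicates and totals of 100250892 to 159077286.

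Counts were divided by median-of-ratios size factors of the 8 libraries, and log2 ratios to 0 min were taken with a pseudocount of 0.5. Genes needed a mean normalized count of 10. Following the methods of the study, a gene was called when its log2 ratio was beyond 0.5 and p was below 0.05 (unadjusted) in an exact negative binomial test with a dispersion trend fitted over all libraries taken as 1 group. Ratios have exact conditional binomial and levels exact Poisson intervals (95%). Transcript lengths came from GENCODE vM21 (GRCm38.p6), matched by accession for all 88 members. The length trend was the median log2 ratio in 30 bins of equal size of log2 length, over coding genes that are not members. The statistics were tested on simulated data. Members, lists and promoters were chosen with earlier results of these data known. Named genes were the 3 highest of each complex, the 5 highest and 5 lowest log2 ratios at 120 min before and after the length trend among members with a mean of at least 100, paralogues, members called at any time, and the fixed pathway lists; further members, the neighbours of Uqcrq and genes sharing windows were picked with their values in view. The Python packages numpy 2.4.6, pandas 2.3.3 and scipy 1.17.1, and edgeR 4.0.16 for an alternative scale and dispersion, were used.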

Additional observations from a re-analysis of the deposited data

How the results depend on the processing

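No paired analysis was possible because each time point has 1 library, so no replicate could be left out either. Scaling to total counts moved the median log2 ratio of all members to -0.20, -0.40, -0.18, -0.45, -0.32 and -0.30 at 15, 45, 60, 75, 90 and 120 min, put 7, 27, 3 and 6 members past the limit at 45, 75, 90 and 120 min, and let 1 member, Atp5sl, pass both criteria at 120 min. Without Rn45s in the totals the medians were -0.26, -0.18, -0.25, -0.20 and -0.29 at 45, 60, 75, 90 and 120 min, with 2, 2 and 6 members past the limit at 75, 90 and 120 min. None of the shares of all genes in the text was taken on a total count scale. The counts of members on these scales therefore cannot be set against all genes. Subtraction of the length trend moved the median to -0.015, -0.0017, -0.030, 0.0026, 0.0047, 0.015 and -0.014 from 15 to 120 min. The sign changed at 60, 75 and 90 min. The members past the limit then numbered 1 at each of 60, 90 and 120 min, against 0, 0 and 2 before. With ribosomal protein genes also left out of the trend the medians were -0.015, 0.00046, -0.027, 0.017, 0.011, 0.028 and -0.00041 from 15 to 120 min, with the same numbers past the limit. A mean of at least 100 and structural subunits alone each left 0 members past the limit at 45 min, and the latter also 0 at 120 min, by their construction. A log2 limit of 1 left 0 at 45, 75 and 120 min. Members with at least 1 count in any library gave 2, 2, 2, 1, 3, 2 and 4 members past the limit in the order of time, the added ones having under 15 counts in a library. Without Uqcrq, chosen after seeing the data, 0 members were past it at 75 min. Also chosen after seeing the data, the 15 min library as base moved 6 of 15 log2 ratios of 5 members, among them Uqcrq to 0.025, 0.40 and 0.17 at 45, 75 and 90 min, and the number of unique 58-base windows as length moved 26 of 33 levels. Size factors of edgeR, a pseudocount of 5, the edgeR dispersion and Benjamini-Hochberg adjustment changed none of the members' counts by more than 1.5 times. The median was not moved by over 0.05 in any case not named here. Beyond the scales, the causes of these moves were not tested. Single log2 ratios and levels are given as moved when they left the interval of counting error of the value in the text, whatever the size of the change. For single named members, both total count scales moved 30 of 33 log2 ratios at 120 min in this sense, both length trends 26 and edgeR's scale 6. Members with few counts, such as Cox6a2 and Cox7a1, are limited by depth, and the others by the lack of replicates.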
